A study of Mus musculus with 10 samples.

Results

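The genes described here encode the phase II enzymes that attach a polar group to drugs, steroids, bile pigments and reactive lipids. They were taken as the protein-coding genes named Ugt1, Ugt2, Ugt3 or Ugt8, Sult, Mgst, or Gst of the a, k, m, p, o, t or z class, which gave 68 of the 54532 genes measured. Of these, 22 were Ugt genes, 21 Sult genes and 25 Gst or Mgst genes, and 7 pseudogenes with such names were left out. UDP-glucuronosyltransferases (Ugt) add a sugar from a UDP-sugar, sulfotransferases (Sult) add sulfate from the donor PAPS, and glutathione S-transferases (Gst, and the membrane-bound Mgst) join glutathione to electrophiles. In the kidney, many of these enzymes are made in the proximal tubule, where the conjugates are pumped into the urine or broken down to mercapturates. Many of the genes lie in tandem clusters of close copies, and several are known mainly from liver or intestine.

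Bulk RNA sequencing was carried out on obstructed kidneys of male C57BL/6 mice. In both groups the left ureter of mice aged 8 weeks was tied off (UUO, unilateral ureteral obstruction), and kidneys were collected 14 days later. Mice received either dimethyl malonate (DMM), an ester prodrug of malonate that inhibits succinate dehydrogenase, at 40 mg/kg by intraperitoneal injection every other day, or PBS. Each group had 5 mice with 1 library each, no kidney without obstruction was analysed here, and the comparison asks which transcripts of obstructed kidneys differed with DMM.

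Total counts were 18078777, 16457495, 17825223, 18068465 and 16508788 in PBS 1 to 5 and 15797882, 15722527, 17806034, 19475833 and 16794390 in DMM 1 to 5. A library is named by its group and mouse number. Levels are given as CPM (counts scaled to a common library size) after TMM scaling, and as the deposited FPKM, which divides by gene length, where genes are compared with each other. Fold changes are of DMM over PBS on the log2 scale with their standard error (SE), p-values were adjusted by the Benjamini-Hochberg method over all genes tested by edgeR's quasi-likelihood test, and a gene was called at an adjusted p below 0.05 with a fold change above 1.5.

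Several libraries stood apart from their groups. The group means that the authors deposited give PBS 3 and DMM 1 a weight of 0, although their methods describe a comparison with 5 independent replicates. These 2 libraries also went against their groups in the data. Among the 41 conjugation genes that passed the filter on low counts, PBS 3 was the highest PBS library in 21 (51.2%), against 26.9% of all tested genes, and DMM 1 the lowest DMM library in 13 (31.7%), against 19.4%. Each result is therefore given over all 10 libraries and over the 8 libraries without these, and the sets share 8 libraries. Leaving out libraries that go against their groups widens the difference between the groups, so the adjusted p-values and calls over the 8 libraries cannot be read as those of a set chosen without regard to the values. DMM 4, which was kept, was the lowest DMM library in more of the 41 genes than DMM 1, in 22 (53.7%), against 40.1% of all tested genes. Relative to the mean of DMM 2, 3 and 5, its log2 CPM had a median difference of -0.59 in the 25% of tested genes with the shortest gene models (at most 2403 bp) and of 0.53 in the 25% with the longest (at least 6291 bp). The tested conjugation genes are short, with a median of 1989 bp, and their median difference in DMM 4 was -0.90. Length did not order them one by one. In DMM 4, Ugt2b37 (1894 bp) was at its highest of the 10 libraries, at 207 CPM, and Gstt2 (4156 bp) at its lowest, at 25.1 CPM. Across genes, the correlation of DMM 4 with the other libraries was 0.904 to 0.92, against 0.934 or more for every other pair. The cause was not tested. PBS 4 was the lowest PBS library in 17 of the 41 genes (41.5%), against 26.3% of all tested genes.

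Most tested conjugation genes had higher values with DMM, but calls depended on the libraries. With all 10 libraries, edgeR called 0 of 16505 genes higher (0%) and 0 lower (0%), and so 0 of the 41 conjugation genes, and DESeq2 called 41 genes, of which 0 were conjugation genes. At an unadjusted p below 0.05 with a fold change above 1.5, 8 of the 41 were higher (19.5%), against 1.91% of all genes, and 3 were lower (7.32%), against 4.11%. The 8 higher were Sult1d1, Ugt1a6a, Ugt1a7c, Ugt1a10, Ugt2b34, Gsta1, Gsta2 and Gstk1. The Ugt1a genes share exons, and Gsta1 and Gsta2 share sequence with other genes, so these 8 are not all separate measurements. Without PBS 3 and DMM 1, edgeR called 8 of the 41 higher (19.5%), against 2.73% of the 16550 genes tested, and 2 lower (4.88%), against 3.56%. The genes called higher were Ugt1a7c, Ugt2b34, Ugt2b38, Ugt8a, Sult1c2, Sult1d1, Gsta3 and Gstz1, and those called lower were Sult5a1 and Sult6b1. The share called lower lay near that of all genes.

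The sign of the fold change was less dependent on the set, but the sets share 8 libraries, so that part of this agreement is built in. It was positive in 31 of the 41 genes over all 10 libraries, against 52.8% of all tested genes, and in 32 of 41 over the smaller set, against 52.4%. The median log2 fold change of the tested conjugation genes was 0.35 with all 10 libraries and 0.41 with 8, beside 0.02 and 0.02 for all tested genes. These medians leave out the 27 genes under the filter. Scaling by library size alone moved the median of all genes by -0.11 over the 8 libraries and the split of called genes from 452 of 1042 higher (43.4%) to 276 of 976 (28.3%), and with it 29 of the 41 conjugation genes had a positive fold change, with a median of 0.29. Over all 10 libraries, 27 of the 41 were positive with that scaling and 38 of the 41 without DMM 4.

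**Figure D1:**
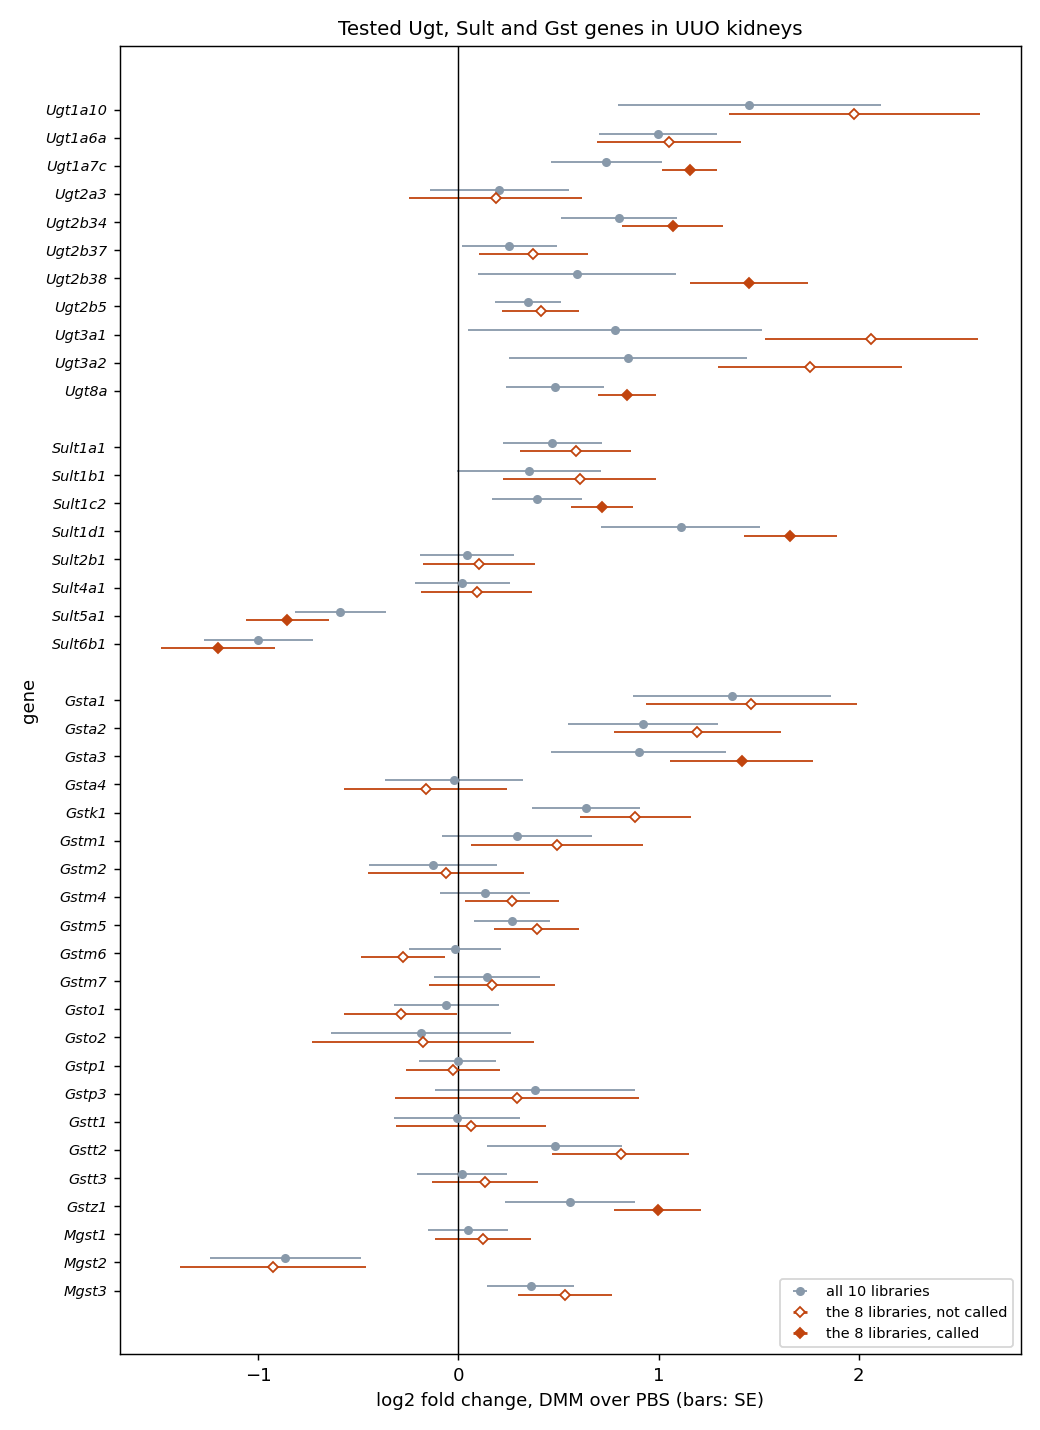
Log2 fold change of DMM over PBS (horizontal axis, bars show the SE) for the 41 tested Ugt, Sult, Gst and Mgst genes. Grey circles show the fit to all 10 libraries and diamonds the fit to the 8 libraries, filled where the gene was called; the 11 Ugt genes lie to the right of 0 in both fits, and Sult5a1 and Sult6b1 lie to the left.

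Levels within each class differed widely when scaled by gene length. Gstm1 had the highest mean deposited FPKM over 10 libraries, 173, followed by Sult1d1 at 87.8, Gstp1 at 79.9, Ugt3a2 at 77.4, Ugt2b38 at 66.4 and Ugt2b37 at 64.8. This order is that of the mean over both groups. By the mean of the PBS libraries alone, Gstp1 lay above Sult1d1 per length, and Ugt2b37 above Sult1d1, Ugt3a2 and Ugt2b38. Gsta2 was the most abundant alpha class gene at 54.1, Gsto1 led the kappa, omega and zeta classes at 46.8, Gstt1 the theta class at 45.4, and Mgst1 the membrane-bound enzymes at 36.1. Among the other groups, the leading genes were Ugt1a7c at 15.8, Ugt8a at 13.3 and, for Sult2 to Sult6, Sult4a1 at 2.92. Each class thus had transcripts in the obstructed kidney, and its leading gene was scarcest for Sult2 to Sult6.

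Summed over the genes of each class, the libraries fell into a similar order for Ugt and Sult genes. The 22 Ugt genes summed to 474, 475, 1131, 254 and 399.99 CPM in PBS 1 to 5 and to 412, 1002, 872, 837 and 1184 CPM in DMM 1 to 5. For the 21 Sult genes the sums were 195, 162, 330.1, 125 and 194 CPM in PBS 1 to 5 and 153, 310.3, 445, 467 and 491 CPM in DMM 1 to 5. In both, DMM 2 to 5 lay above PBS 1, 2, 4 and 5, PBS 3 lay among the DMM libraries, and DMM 1 lay among the PBS libraries. Both sums rest on few genes, so this order is not that of each gene. Sult1d1 held most of the Sult sum, with 391 of 467 CPM in DMM 4, and 10 of the 21 Sult genes had 0 counts. The Sult2 to Sult6 sum did not follow the order, at its highest in PBS 1 (21.2 CPM) and lowest in DMM 4 (11.2 CPM). Most of the Ugt sum came from Ugt3a2, Ugt2b38 and Ugt2b37. The 25 Gst and Mgst genes summed to 814, 936, 1086, 847 and 891 CPM in PBS 1 to 5 and to 880.3, 1080.4, 1451, 492 and 1544 CPM in DMM 1 to 5. Here DMM 4 was the lowest of the 10 libraries, so that the groups overlapped also without PBS 3 and DMM 1.

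**Figure D2:**
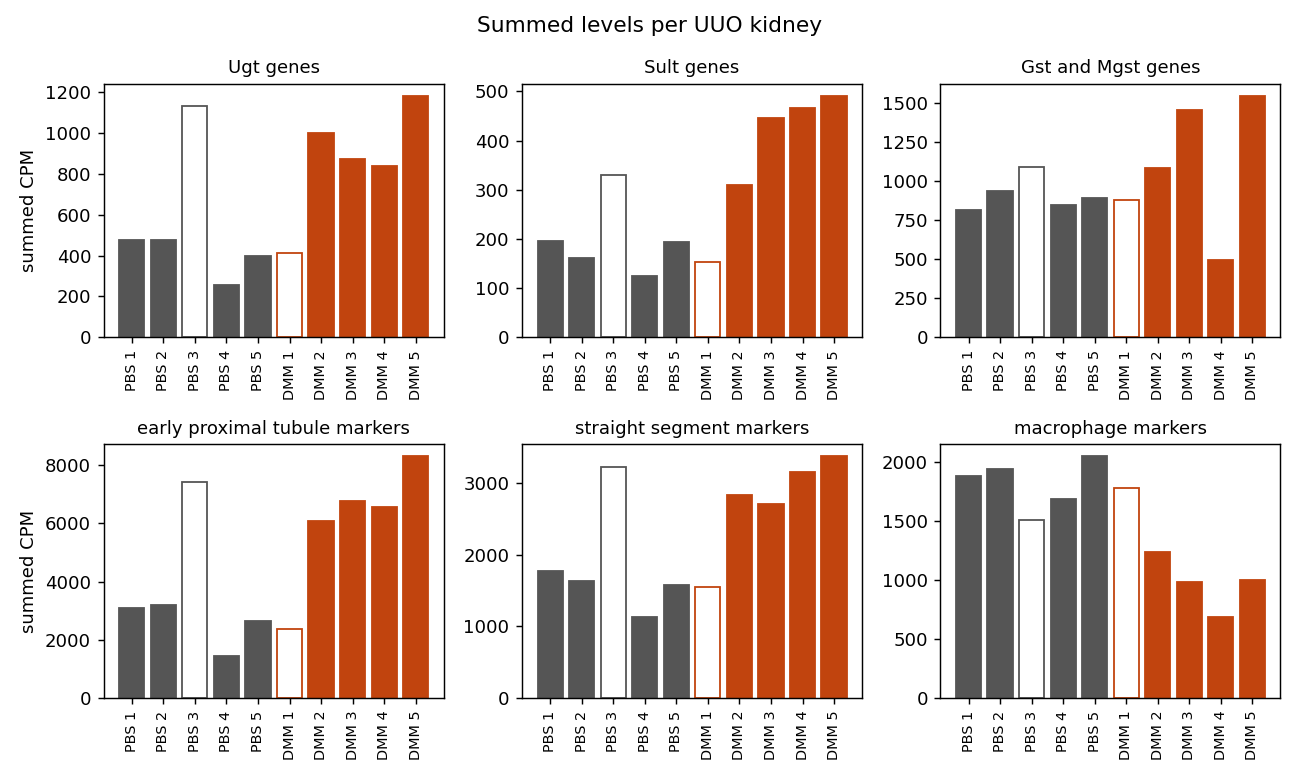
Summed CPM (vertical axes, from 0) of the Ugt, Sult, and Gst with Mgst genes and of 3 lists of cell type markers in each library (PBS grey, DMM orange; open bars are PBS 3 and DMM 1). The Ugt sums run from 254 in PBS 4 to 1184 in DMM 5, and the Gst and Mgst sum is lowest in DMM 4, at 492.

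The Ugt1 family is a single locus on chromosome 1, where each gene has its own first exon, which encodes the part that binds the substrate, and splices to the same downstream exons. Of its 9 genes, 3 passed the filter. Ugt1a7c (chr1:88095062-88220002, mm10, plus strand) was at 38.2, 42.4, 82.0, 40.7 and 48.6 CPM in PBS 1 to 5 and at 41.7, 88.7, 101, 78.6 and 109.8 CPM in DMM 1 to 5. DMM 2 to 5 lay above PBS 1, 2, 4 and 5 with no overlap, PBS 3 lay within the DMM range and DMM 1 within the PBS range. Over the 8 libraries Ugt1a7c was called higher, at a log2 fold change of 1.15 ± 0.14 (SE) and an edgeR adjusted p of 0.00224, against 0.74 ± 0.28 and an adjusted p of 0.397 with all 10. It kept its call when any single library was left out of the 8.

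The other tested genes of the locus had few counts. Ugt1a10 (chr1:88055388-88219004) had 53, 34, 68, 39 and 14 counts in PBS 1 to 5 and 18, 143, 179, 18 and 169 in DMM 1 to 5. The DMM libraries split, with DMM 1 and 4 as low as the PBS libraries. With all 10 libraries the log2 fold change was 1.45 ± 0.66 (unadjusted p 0.0491, edgeR adjusted p 0.457), and with 8 it was 1.98 ± 0.63 (adjusted p 0.100). Ugt1a6a (chr1:88134809-88218997), which conjugates simple phenols, had 6, 5, 10, 12 and 8 counts in PBS 1 to 5 and 16, 12, 15, 18 and 15 in DMM 1 to 5. In CPM the groups did not overlap even with all 10 libraries, at 0.294 to 0.638 against 0.756 to 1.09, but the log2 fold change of 0.99 ± 0.29 had an edgeR adjusted p of 0.378, a value it shared with other genes, and that of 1.05 ± 0.36 in the smaller set an adjusted p of 0.126.

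Reads from the downstream exons cannot be given to 1 gene of the locus. Of the 100-base windows along the longest transcript, 68.8% for Ugt1a7c, 57.5% for Ugt1a10 and all for Ugt1a6a also occur in transcripts of other genes, chiefly of the same locus, and how the authors' counting split such reads is not stated in the sources used here. All windows of Ugt1a6a, not only those of the downstream exons, occur in transcripts annotated to Ugt1a7c. The counts of Ugt1a7c and Ugt1a6a can therefore not be taken as those of separate genes. The exons of the locus also overlap those of Gm20528 on the opposite strand. The start of the coding sequence of 3 genes shows what tells them apart, and the stretch after it, from a downstream exon, is found in transcripts of all 9 (GENCODE M21 transcripts, GRCm38, plus strand, 60 bases each; chr1:88055482-88055541, chr1:88095121-88095180, chr1:88200637-88200696 and, shared, chr1:88215044-88215103).
Ugt1a10: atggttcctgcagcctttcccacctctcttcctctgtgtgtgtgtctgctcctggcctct
Ugt1a7c: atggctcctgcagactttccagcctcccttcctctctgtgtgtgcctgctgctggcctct
Ugt1a2: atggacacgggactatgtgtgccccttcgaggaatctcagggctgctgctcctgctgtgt
shared: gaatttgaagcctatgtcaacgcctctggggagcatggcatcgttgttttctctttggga

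The counts of the 9 genes were also summed, which removes the division of reads among them but not the loss of any reads that the counting discarded as shared. The sum was 41.8, 45.1, 87.5, 44.5 and 50.6 CPM in PBS 1 to 5 and 45.1, 99.5, 144, 81.8 and 126 CPM in DMM 1 to 5. The fold change of the sum was 1.31 ± 0.18 (log2) over the 8 libraries, with an edgeR adjusted p of 0.00466, and 0.88 ± 0.30 with an adjusted p of 0.387 over all 10. Part of the value in DMM 3 came from Ugt1a2, which did not pass the filter and was singled out after its values were seen. It had 5, 1, 4, 5 and 3 counts in PBS 1 to 5 and 6, 6, 529, 18 and 49 counts in DMM 1 to 5, so that a single library held most of its reads, although in CPM every DMM library (0.370 or more) lay above every PBS library (0.266 or less). Over the 8 libraries it was called with no filter on low counts, and also when DMM 2 was left out.

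The Ugt2 genes, which conjugate steroids and bile acids among others, lie in a cluster on chromosome 5. Ugt2b38 (chr5:87409942-87424203, minus strand), which had the highest mean FPKM over both groups but lay below Ugt2b37 in 6 of the 10 libraries, was at 75.9, 85.0, 249.8, 31.2 and 62.5 CPM in PBS 1 to 5 and 63.6, 196, 125, 187 and 189 CPM in DMM 1 to 5. PBS 3 was the highest of all 10 libraries, and the groups overlapped only through PBS 3 and DMM 1. The log2 fold change was 0.59 ± 0.50 over all 10 (edgeR adjusted p 0.634) and 1.45 ± 0.29 over 8 (adjusted p 0.0217), where it was called higher. The call was lost without PBS 1, PBS 5 or DMM 5, and 24.2% of its 100-base windows are shared with Ugt2b5.

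Ugt2b34 (chr5:86889767-86906937, minus strand) did not have the high value of Ugt2b38 in PBS 3. It was at 8.26, 13.5, 15.3, 12.3 and 11.5 CPM in PBS 1 to 5 and 10.3, 18.3, 19.0, 36.3 and 22.2 CPM in DMM 1 to 5, so that only DMM 1 overlapped the PBS libraries. It was called higher over the 8 libraries (log2 fold change 1.07 ± 0.25, edgeR adjusted p 0.0392), and over all 10 it had 0.80 ± 0.29 with an unadjusted p of 0.0186 and an adjusted p of 0.388. The call was kept in 2 of the 8 fits that left out a library, those without DMM 2 and without DMM 4. The remaining tested Ugt2 genes, Ugt2a3, Ugt2b5 and Ugt2b37, were not called in either set.

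Ugt3 enzymes use UDP-sugars other than UDP-glucuronic acid, and their 2 genes lie side by side on chromosome 15. Ugt3a2 (chr15:9335550-9370955, plus strand) was at 159.8, 144, 434, 37.0 and 89.1 CPM in PBS 1 to 5 and at 102, 375, 364, 185 and 528 CPM in DMM 1 to 5. The range within the PBS group was wide, from PBS 4 to PBS 3, and DMM 2 to 5 lay above PBS 1, 2, 4 and 5. Its log2 fold change of 1.76 ± 0.46 over the 8 libraries missed the threshold, with an edgeR adjusted p of 0.0527, and over all 10 it was 0.85 ± 0.60 with an adjusted p of 0.580. Ugt3a1 (chr15:9276888-9315032), named after its values were seen, had the largest fold change of the tested conjugation genes over the 8 libraries, 2.06 ± 0.53, with an adjusted p of 0.0509, against 0.78 and an adjusted p of 0.676 over all 10. Without DMM 4 both were called, at 1.98 ± 0.40 for Ugt3a2 and 2.28 ± 0.47 for Ugt3a1, and over the 8 libraries both were called with no filter on low counts or by DESeq2, and Ugt3a1 also with RLE size factors or with protein-coding genes only.

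Ugt8a, the single Ugt8 gene (chr3:125865271-125938619, minus strand), encodes the enzyme that makes galactosylceramide and so acts on lipids rather than on drugs. Its levels were 49.4, 42.4, 79.2, 36.0 and 46.8 CPM in PBS 1 to 5 and 41.4, 76.7, 65.8, 92.3 and 78.4 CPM in DMM 1 to 5. As for Ugt1a7c, PBS 3 sat among the DMM libraries and DMM 1 among the PBS libraries, while the others did not overlap. The log2 fold change was 0.84 ± 0.14 over 8 (edgeR adjusted p 0.0113, called higher) and 0.48 ± 0.24 over 10 (adjusted p 0.497), and the call was kept when any single library was left out of the 8. All 11 tested Ugt genes had a positive fold change in both sets, also with RLE size factors, library size alone or DESeq2, with a median log2 fold change of 0.74 over all 10 libraries and 1.07 over 8. The exception among all fits was Ugt2a3, which turned to -0.02 when PBS 1 or PBS 4 was left out of the 8.

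Among the sulfotransferases, the called Sult1 genes were higher with DMM and the called genes of other families lower. Sult1d1 (chr5:87554645-87569027, minus strand), which sulfates catecholamines and phenols, was the most abundant, at 128, 101, 249, 77.0 and 133 CPM in PBS 1 to 5 and 98.3, 230.0, 360.3, 391 and 406 CPM in DMM 1 to 5. PBS 3 lay just above DMM 2, DMM 1 lay among the PBS libraries, and the remaining 8 did not overlap. It was called higher over these 8 with a log2 fold change of 1.66 ± 0.23 (edgeR adjusted p 0.00517), and over all 10 it had 1.11 ± 0.40 (unadjusted p 0.0173, adjusted p 0.388). No single library decided the call over the 8, and no 100-base window of its longest transcript occurs in another gene.

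Sult1c2 (chr17:53829637-53846339, minus strand), a phenol sulfotransferase, was at 34.7, 31.4, 52.2, 22.0 and 30.5 CPM in PBS 1 to 5 and at 29.4, 46.2, 47.4, 55.3 and 46.3 CPM in DMM 1 to 5. Apart from PBS 3 and DMM 1 the groups were separate, and DMM 2 to 5 lay close together. The log2 fold change was 0.72 ± 0.15 over 8 (edgeR adjusted p 0.0260, called higher) and 0.39 ± 0.23 over 10 (adjusted p 0.530). The call was kept in 3 of the 8 fits that left out a library, those without PBS 1, DMM 2 and DMM 4.

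Both called lower genes were scarce. Sult5a1 (chr8:123140192-123158315, minus strand) had 82, 76, 55, 67 and 78 counts in PBS 1 to 5 and 64, 38, 47, 31 and 40 counts in DMM 1 to 5, which is 3.09 to 4.59 CPM against 1.87 to 3.95 CPM. PBS 3 was the lowest PBS library and DMM 1 the highest DMM library, and without these the groups did not overlap. Its log2 fold change was -0.86 ± 0.21 over 8 (edgeR adjusted p 0.0420) and -0.59 ± 0.23 over 10 (unadjusted p 0.0251, adjusted p 0.408).

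Sult6b1 (chr17:78883938-78906992, minus strand) had 55, 56, 52, 61 and 36 counts in PBS 1 to 5 and 36, 22, 15, 27 and 19 counts in DMM 1 to 5. Only DMM 1 reached the PBS libraries, and PBS 3 was not set apart. The log2 fold change was -1.20 ± 0.28 over 8 (edgeR adjusted p 0.0387) and -0.999 ± 0.27 over 10 (unadjusted p 0.00347, adjusted p 0.378), and without DMM 1 alone it was the 1 conjugation gene called. Its exons overlap those of the long noncoding gene Gm26637 on the opposite strand, and reads of the pair cannot be told apart where strand was not used in counting. Of the 8 fits that left out a further library, only that without DMM 4 kept the calls of Sult5a1 and Sult6b1, and both calls were lost with no filter on low counts.

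Sult4a1 (chr15:84076097-84105754), best known from brain, was the most abundant of the Sult2 to Sult6 genes and differed little, at 9.43, 7.83, 7.14, 5.69 and 6.65 CPM in PBS 1 to 5 and 5.68, 10.3, 9.24, 4.53 and 7.42 CPM in DMM 1 to 5. Its log2 fold change was 0.02 ± 0.24 over 10 libraries and 0.09 ± 0.28 over 8 (edgeR adjusted p 0.981 and 0.883). The hydroxysteroid sulfotransferases Sult2a1 to Sult2a8, abundant in mouse liver, and Sult3a1 and Sult3a2 had 0 counts in every library, where 3 counts would be 0.159 to 0.189 CPM.

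**Figure D3:**
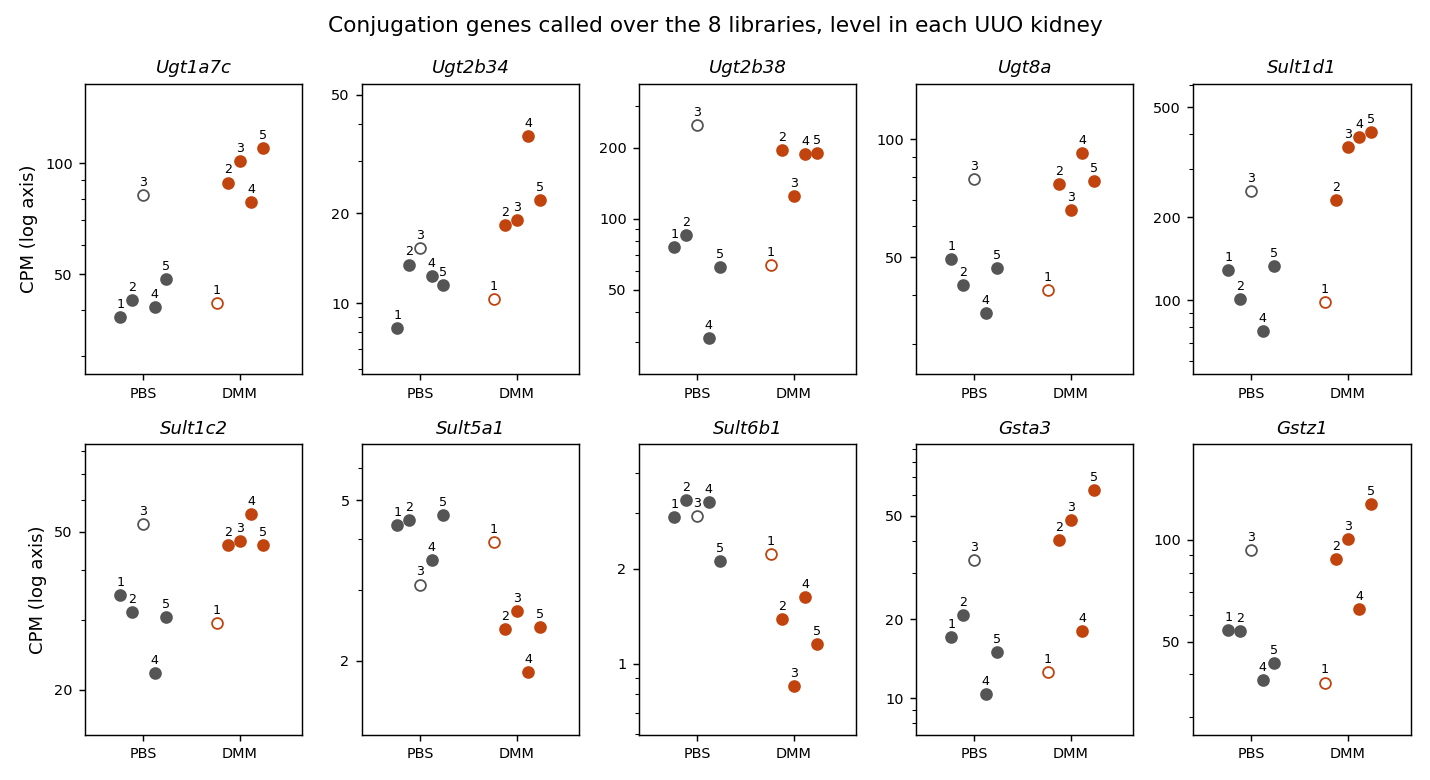
CPM (log axis) of the 10 conjugation genes called over the 8 libraries, 1 point per mouse with its number, PBS in grey and DMM in orange. Open points are PBS 3 and DMM 1, which lie in or near the range of the other group for most of these genes; in Ugt1a7c they are at 82.0 and 41.7 CPM.

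The alpha class of glutathione transferases held the largest differences among the Gst genes. Gsta3 (chr1:21240589-21265661, plus strand), known for conjugating aflatoxin epoxide in mice, was at 17.1, 20.8, 33.8, 10.3 and 14.9997 CPM in PBS 1 to 5 and at 12.6, 40.2, 47.9, 18.1 and 62.4 CPM in DMM 1 to 5. DMM 4 lay within the PBS range, so that the groups overlapped also over the 8 libraries. There it was called higher, with a log2 fold change of 1.41 ± 0.36 and an edgeR adjusted p of 0.0480, just inside the threshold, against 0.90 ± 0.44 and an adjusted p of 0.484 over all 10. The call was lost with library size alone as the scaling, and in every fit that left out a library other than that without DMM 4.

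Gsta2 (chr9:78331018-78355788, minus strand) was at 33.8, 42.2, 62.7, 29.7 and 52.7 CPM in PBS 1 to 5 and at 56.6, 63.9, 139, 32.5 and 127 CPM in DMM 1 to 5. DMM 3 and 5 stood above all other libraries, and DMM 4 was near the lowest. For Gsta2 the log2 fold change was 0.92 ± 0.37 over 10 (unadjusted p 0.0308, edgeR adjusted p 0.421) and 1.19 ± 0.42 over 8 (adjusted p 0.134). Its neighbour Gsta1 (chr9:78230656-78242684) had 4 to 16 counts in the PBS libraries and 7 to 31 in the DMM libraries, with a log2 fold change of 1.37 ± 0.49 over 10 (unadjusted p 0.0180, adjusted p 0.388) and 1.46 ± 0.53 over 8 (adjusted p 0.144). Of their 100-base windows, 35.0% for Gsta2 and 81.8% for Gsta1 occur in other genes, so that reads may have been divided among copies.

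Gstz1 (chr12:87147165-87164723, plus strand), the zeta class enzyme, is known for the isomerase step of tyrosine breakdown. It was at 54.3, 53.8, 93.2, 38.5 and 43.2 CPM in PBS 1 to 5 and at 37.8, 87.7, 101, 62.3 and 128 CPM in DMM 1 to 5. DMM 2 to 5 lay above PBS 1, 2, 4 and 5, DMM 1 was the lowest of all and PBS 3 lay among the DMM libraries. The log2 fold change was 0.99 ± 0.22 over 8 (edgeR adjusted p 0.0298, called higher) and 0.56 ± 0.32 over 10 (adjusted p 0.533). Its exons overlap those of Pomt2 and Gm6566 on the opposite strand, and its call too was lost with library size alone and in every fit that left out a library other than that without DMM 4.

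The kappa and omega class genes were not called. Gstk1 (chr6:42245935-42250447), an enzyme of mitochondria and peroxisomes, was at 10.3, 13.7, 15.4, 8.41 and 8.82 CPM in PBS 1 to 5 and at 11.9, 20.7, 23.4, 10.1 and 21.8 CPM in DMM 1 to 5. DMM 2, 3 and 5 were above every PBS library, while DMM 1 and 4 were not. For Gstk1 the log2 fold change was 0.64 ± 0.27 over 10 (unadjusted p 0.0376, edgeR adjusted p 0.434) and 0.88 ± 0.28 over 8 (adjusted p 0.0976). Gsto1 (chr19:47854970-47864790), which reduces dehydroascorbate, was at 76.8, 92.3, 75.3, 108 and 121 CPM in PBS 1 to 5 and at 128, 82.4, 103, 40.1 and 100.4 CPM in DMM 1 to 5, with a log2 fold change of -0.06 ± 0.26 over 10 and -0.29 ± 0.28 over 8 (adjusted p 0.937 and 0.598).

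The abundant mu, pi and theta class genes shared a low value in DMM 4. Gstm1 (chr3:108012255-108017973) was at 174, 256, 282, 227 and 217 CPM in PBS 1 to 5 and at 187, 272, 416, 82.6 and 456 CPM in DMM 1 to 5. Gstp1 (chr19:4035407-4037921) was at 62.2, 58.8, 63.2, 55.5 and 65.0 CPM in PBS 1 to 5 and at 66.5, 70.5, 67.0, 31.3 and 68.4 CPM in DMM 1 to 5, and 52.8% of its windows are shared with Gstp2. Gstt1 (chr10:75783813-75798584) was at 67.6, 66.7, 89.2, 57.8 and 68.9 CPM in PBS 1 to 5 and at 75.3, 80.8, 79.1, 20.7 and 92.2 CPM in DMM 1 to 5. None was called: the log2 fold changes over all 10 libraries were 0.29 ± 0.37 for Gstm1, -0.00495 ± 0.19 for Gstp1 and -0.00845 ± 0.31 for Gstt1, and over the 8 libraries 0.49 ± 0.43, -0.03 ± 0.23 and 0.06 ± 0.37, with edgeR adjusted p of 0.556, 0.962 and 0.941.

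Of the membrane-bound enzymes, Mgst1 (chr6:138140316-138156755), a microsomal transferase and peroxidase, was at 72.7, 72.7, 75.1, 74.5 and 64.6 CPM in PBS 1 to 5 and at 62.2, 80.0, 94.8, 40.8 and 94.1 CPM in DMM 1 to 5. The DMM libraries spread to both sides of the PBS libraries, and the log2 fold change was 0.05 ± 0.20 over 10 and 0.12 ± 0.24 over 8 (edgeR adjusted p 0.933 and 0.810). Mgst2 (chr3:51660360-51682677), which can make leukotriene C4, had 16, 9, 15, 26 and 25 counts in PBS 1 to 5 and 9, 6, 13, 5 and 13 counts in DMM 1 to 5. Its log2 fold change was -0.87 ± 0.38 over 10 (unadjusted p 0.0425, adjusted p 0.442) and -0.93 ± 0.46 over 8 (adjusted p 0.292).

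The number of Gst genes called varied with the libraries and the tool. Leaving out any of the 8 libraries other than DMM 4 left 0 Gst genes called. DESeq2 over the 8 libraries called 15 conjugation genes, the 10 of edgeR and Ugt1a10, Ugt3a1, Ugt3a2, Gsta2 and Gstk1, while over all genes it called 1663 of 16550, against 1042 by edgeR. Without DMM 4, 3 DMM libraries were set against 4 PBS libraries, and 17 conjugation genes were called higher, against 6.71% of the 16828 genes then tested, and 2 lower, against 7.61%. These were all 10 genes named above and Ugt1a10, Ugt3a1, Ugt3a2, Sult1a1, Gsta2, Gstk1, Gstm1, Gstt2 and Mgst3. Gstm1 then had a log2 fold change of 0.81 ± 0.18 (edgeR adjusted p 0.00987), Gsta2 of 1.48 ± 0.27 (adjusted p 0.00404) and Gstk1 of 1.10 ± 0.16 (adjusted p 0.00176), while Gstp1, at 0.19 ± 0.07, and Gsto1, at -0.06 ± 0.15, were not called. Without PBS 4 in its place, 4 conjugation genes were called, Sult1d1, Ugt1a7c, Ugt2b38 and Ugt8a, beside 477 of 16810 genes in all.

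The 18 tested genes not described one by one had log2 fold changes from -0.19 to 0.78 over all 10 libraries and, Ugt3a1 included, from -0.28 to 2.06 over 8, with positive values for 14 of 18 in both. Their mean FPKM ran from 0.292 to 64.8. Another 27 genes did not pass the filter in either set. Of these, 14 had 0 counts in every library, namely Sult2a1 to Sult2a8, Sult3a1, Sult3a2, Ugt1a5, Ugt2a1, Ugt2a2 and Ugt2b36. The other 13 were Ugt1a1, Ugt1a2, Ugt1a6b, Ugt1a8, Ugt1a9, Ugt2b1, Ugt2b35, Sult1c1, Sult1e1, Sult6b2, Gstm3, Gstp2 and Gstt4, and apart from Ugt1a2 they had at most 26 counts in any library.

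Genes that supply the conjugating enzymes were read from lists of known pathway genes, and edgeR called 0 of them over all 10 libraries. For UDP-glucuronic acid supply, 0 of 4 tested genes were called over the 8 libraries. The gene of smallest p was Gusb there, the lysosomal enzyme that removes glucuronic acid, with a log2 fold change of -0.40 ± 0.10 (adjusted p 0.0506; -0.25 ± 0.12 over all 10), and Ugp2, which makes UDP-glucose, over all 10, at 0.49 ± 0.21 (adjusted p 0.430; 0.69 ± 0.20 over the 8). Of 10 tested genes of PAPS supply and desulfation, 3 rose over the 8 and 0 fell, where 2.73% of all tested genes were called higher and 3.56% lower. These were 2 sulfate carriers of the proximal tubule, Slc26a1 (1.17 ± 0.18, adjusted p 0.00819) and Slc13a1 (1.0032 ± 0.17, adjusted p 0.0109), and the PAPS synthase Papss2 (1.10 ± 0.19, adjusted p 0.0115). With all 10 libraries the values were smaller, at 0.74 ± 0.29, 0.79 ± 0.22 and 0.65 ± 0.30, with edgeR adjusted p of 0.408, 0.378 and 0.459.

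Slc13a1, which takes sulfate up from the urine, was at 317, 431, 423, 262 and 377 CPM in PBS 1 to 5 and at 354, 634, 655, 782 and 713 CPM in DMM 1 to 5. Only DMM 1 overlapped the PBS libraries. The other PAPS synthase gene, Papss1, differed by 0.07 ± 0.13 (log2) between the groups of 4 and by 0.03 ± 0.11 between those of 5, Sts had no row of that name, and Bpnt2 was measured under its older name Impad1 and not called.

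Of 20 tested genes of glutathione synthesis and mercapturate steps, 4 rose over the 8 libraries and 0 fell, beside 2.73% and 3.56% of all tested genes. Gclm and Gclc, the subunits of the enzyme that sets the rate of glutathione synthesis, had log2 fold changes of 0.86 ± 0.11 (edgeR adjusted p 0.00300) and 1.03 ± 0.15 (adjusted p 0.00670). Oplah, the 5-oxoprolinase of the glutathione cycle, had 0.94 ± 0.19 (adjusted p 0.0207), and the last was Ggt1. With all 10 libraries Gclm, Gclc and Oplah were at 0.55 ± 0.21, 0.75 ± 0.22 and 0.68 ± 0.23, with edgeR adjusted p of 0.405, 0.378 and 0.385. Gclc was at 150.0, 169, 233, 132 and 155 CPM in PBS 1 to 5 and at 173, 282, 309, 259 and 389 CPM in DMM 1 to 5, where PBS 3 lay below DMM 2 to 5 and DMM 1 just above the other PBS libraries.

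The remaining lists held fewer calls, to be read beside the same shares of all genes. Of 8 tested genes of other conjugation enzymes, Ephx2, the soluble epoxide hydrolase, rose over the 8 libraries (0.81 ± 0.15, edgeR adjusted p 0.0152), and of 6 efflux pumps of conjugates, Abcg2 (0.92 ± 0.12, adjusted p 0.00406) and Abcc2 (1.40 ± 0.22, adjusted p 0.00875) rose. With all 10 libraries these were at 0.47 ± 0.23, 0.57 ± 0.24 and 0.89 ± 0.36, with adjusted p of 0.484, 0.430 and 0.415. Both pumps lie on the urine side of proximal tubule cells. Of 14 tested regulators, Ppara (1.73 ± 0.29, adjusted p 0.0109) and Hnf4a (0.88 ± 0.17, adjusted p 0.0194) rose, against 1.17 ± 0.41 (adjusted p 0.387) and 0.53 ± 0.26 (adjusted p 0.482, a fold change of 1.44) with all 10, and none of these lists had a gene called lower. Nfe2l2, which encodes NRF2, had 0.09 ± 0.10 over the 8 and 0.09 ± 0.09 over all 10 and was named after its values were seen, as was Keap1, its inhibitor, with -0.53 ± 0.13 and an adjusted p of 0.0406 over the 8 but a fold change of 1.44, below the minimum, and -0.38 ± 0.14 over all 10 (adjusted p 0.387). Among 10 NRF2 reference targets, 3 rose, Gclm, Gclc and Nqo1 (1.44 ± 0.27, adjusted p 0.0153, against 1.01 ± 0.35 and 0.387 with all 10).

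Summed markers of the proximal tubule moved with the Ugt and Sult sums. For the early segments, the 13 markers summed to 3096, 3186, 7405, 1444 and 2629.7 CPM in PBS 1 to 5 and to 2359.6, 6078, 6769.7, 6546 and 8297 CPM in DMM 1 to 5, and for the straight segment the 9 markers summed to 1769.7, 1628, 3221, 1135 and 1575 CPM and to 1545, 2833, 2702, 3145 and 3369 CPM. As in the Ugt and Sult sums, which rest on few genes, PBS 3 was with the DMM libraries, DMM 1 with the PBS libraries and PBS 4 lowest. In DMM 4, long genes held much of these sums, with Lrp2 (16701 bp) at 2504 CPM and Atp11a (11150 bp) at 2329 CPM. Shorter markers were divided in DMM 4. Slc34a1, Miox and Acy3, at 474, 87.2 and 126 CPM, lay within the range of PBS 1, 2, 4 and 5. Slc5a12 (4061 bp), Slc7a13 (2141 bp) and Cyp7b1 (2166 bp), at 130, 99.7 and 37.0 CPM, lay above those libraries and below PBS 3. Over the 8 libraries, 5 of 13 (among them Hnf4a, also listed above as a regulator) and 3 of 9 were called higher, beside 2.73% of all tested genes, and 0 lower, with median log2 fold changes of 1.60 and 1.38, and over all 10 libraries 0 were called in either, with medians of 0.73 and 0.66. The most abundant by FPKM were Slc27a2 at 229.6 and Acy3 at 152. In bulk kidney RNA, fewer cells of a type and less RNA per cell cannot be told apart, and the part of the proximal tubule in the differences of the conjugation genes was not tested.

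Markers of other tubule segments that were called differed in the same direction. Those of the loop of Henle and distal tubule, led by Umod, had 3 of 6 called higher in the smaller set, beside 2.73% of all tested genes, and summed to 3064, 2564, 4153, 1927 and 1673 CPM in PBS 1 to 5 and 2638, 4089, 4689.9, 1896 and 5046 CPM in DMM 1 to 5. Collecting duct markers, led by Aqp2, had 2 of 8 called higher, with sums of 253, 224, 419, 192 and 204 CPM and of 272, 342, 446, 240.0 and 422 CPM. In both lists DMM 4 lay within the PBS range. Injured tubule markers, led by Spp1, had 0 of 8 called, with sums of 14106, 16004, 13455, 19028 and 16351 CPM and of 16622, 19379.6, 20809.6, 20579 and 16725 CPM.

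Stromal and immune markers that were called went the other way, where 3.56% of all tested genes were called lower. Fibroblast and myofibroblast markers, led by Col1a1 by FPKM and Col3a1 by CPM, had 2 of 8 called lower over the 8 libraries. Their sums were 6642, 9759, 5237, 14386 and 9179 CPM in PBS 1 to 5 and 11261, 5327, 3735, 7363 and 4277 CPM in DMM 1 to 5. Macrophage markers, led by Lyz2, had 2 of 7 called lower, with sums of 1887, 1946, 1514, 1685 and 2049.8 CPM and of 1778, 1241, 987, 684 and 1001 CPM. PBS 3 had the lowest sum of the PBS libraries and DMM 1 the highest of the DMM libraries in both lists. T cell markers, led by Trac by FPKM and Cd4 by CPM, had 1 of 7 called lower, with sums of 54.3, 56.0, 53.0, 46.9 and 79.2 CPM and of 50.3, 42.6, 17.7, 21.6 and 22.8 CPM. Podocyte markers, led by Podxl, and endothelial markers, led by Plvap, had 0 of 5 and 0 of 6 called, and their groups overlapped. The podocyte sums were 691, 768, 602, 704 and 728 CPM and 868, 701, 602, 929 and 601 CPM, and the endothelial sums 681, 846, 835, 965 and 752 CPM and 888, 741, 831, 718 and 850.4 CPM. Over all 10 libraries edgeR called 0 markers of any list, and the part of these cell types was not tested either.

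Other tissue was looked for with markers of liver and fat. Of 8 hepatocyte markers 5 were tested and 3 (Fgb, Alb and Serpina1a) called higher over the 8 libraries, beside 2.73% of all tested genes, with sums of 22.1, 28.1, 44.4, 19.9 and 18.2 CPM in PBS 1 to 5 and 16.2, 63.5, 81.1, 38.1 and 107 CPM in DMM 1 to 5. Their most abundant gene by FPKM was Serpina1a, at 53.9 CPM in DMM 5, while Alb was at 0.0532 to 1.52 CPM and Tat and Cps1 at 0 to 0.112 and 0 to 0.372 CPM. Whether any of this RNA came from liver was not tested. Adipocyte markers, led by Cfd, summed to 0.212, 21.5, 0.281, 86.8 and 1.53 CPM in PBS 1 to 5 and 0.617, 0.504, 0.623, 0 and 7.78 CPM in DMM 1 to 5, with 0 genes tested over all 10 libraries and 0 of 1 called over 8. They stood out in PBS 4, which also had the lowest Ugt and Sult sums, and in PBS 2, and their part in those values was not tested.

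The promoters of these genes were searched for 3 short motifs on both strands. RefSeq windows (GRCm38.p6) from 250 bases before to 50 bases after a start were held for 60 of the 68 genes, 72 windows in all. The core of the antioxidant response element, TGACNNNGC, was in 4 of the 72 (5.56%), against 12.4% of the 32851 windows of all genes. A core of the HNF1 motif, GTTAATNA, was in 11 of the 72 (15.3%), against 2.54% of all windows. A core of the HNF4 motif, CAAAGTCC, was in 1 of the 72 (1.39%), that of Sult1b1, against 1.42% of all windows. Of the 11 windows with the HNF1 core, 7 belong to genes that did not pass the filter, Sult2a3 to Sult2a6, Sult3a2, Ugt1a1 and Ugt1a9. Neighbouring genes arose as copies and can share promoter sequence, the motifs were chosen with the results known, and a match describes letters, not binding.

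Among the genes called over the 8 libraries, Gsta3 alone had the first motif and Sult1d1 alone the second, and Ugt1a10, not called, had the second at 2 places. Their windows are printed 5′ to 3′ on the strand of the gene, with the match in capitals, which may read on the other strand. They lie at chr1:21240335-21240634 (plus strand), chr5:87568957-87569256 (minus strand) and chr1:88055161-88055460 (plus strand), and the leftmost match starts 121, 79 and 100 bases before the annotated start.
Gsta3: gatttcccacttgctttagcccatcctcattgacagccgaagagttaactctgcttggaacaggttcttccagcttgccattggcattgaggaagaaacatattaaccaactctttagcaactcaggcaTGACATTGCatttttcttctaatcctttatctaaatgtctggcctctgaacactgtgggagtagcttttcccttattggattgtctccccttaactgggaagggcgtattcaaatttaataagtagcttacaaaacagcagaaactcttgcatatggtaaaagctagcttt
Sult1d1: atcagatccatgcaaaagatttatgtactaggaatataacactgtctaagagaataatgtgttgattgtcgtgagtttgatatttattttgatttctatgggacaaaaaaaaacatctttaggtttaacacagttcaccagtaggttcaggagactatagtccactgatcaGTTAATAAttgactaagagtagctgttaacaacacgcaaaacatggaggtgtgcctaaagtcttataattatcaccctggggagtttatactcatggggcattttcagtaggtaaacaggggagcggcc
Ugt1a10: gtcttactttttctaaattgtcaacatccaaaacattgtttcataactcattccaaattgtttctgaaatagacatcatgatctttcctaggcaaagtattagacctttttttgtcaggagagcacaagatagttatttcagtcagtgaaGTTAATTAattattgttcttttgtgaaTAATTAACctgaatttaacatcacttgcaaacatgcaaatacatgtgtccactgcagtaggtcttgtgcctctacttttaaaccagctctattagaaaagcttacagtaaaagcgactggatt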

How the data were processed

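The authors aligned reads to the mouse genome mm10, and their processing notes name HISAT2 2.0.5. The counting tool, annotation release and use of strand are not given in the sources used here. They deposited unnormalized counts per gene and library, which were tested, and FPKM, used to compare levels between genes: each deposited FPKM is the count divided by gene length and an effective library size. The deposited signal columns hold group means of counts divided by DESeq2 size factors, written here as weighted sums of the counts to find which libraries entered them; the fold changes and p-values of the authors' comparison were not used. Reads carry no described molecular identifiers, so that floors cover counting error only.

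Libraries were grouped by their titles. Genes kept by filterByExpr were scaled by TMM and tested with edgeR 4.0.16 (R 4.3.3), group as the only term. CPM of both sets use the TMM factors of all 10 libraries. The steps were tested on simulated counts. Gene members and lists were chosen with earlier results of these data known. Genes described one by one were those called in either set, those past an unadjusted p of 0.05 with a 1.5-fold change over all 10 libraries, and the most abundant tested gene by FPKM of each of 12 families; from each pathway list, up to 3 called genes or that of smallest p. Alternatives were DESeq2 1.42.0, RLE size factors, library size alone, no filter, at least 10 counts in 4 libraries, other thresholds, a block term for replicate number, fits lacking each library, protein-coding genes only, and Ugt1a genes summed. Exon overlaps and shared 100-base windows came from GENCODE M21, where 64 of the 68 genes had the start and end of the table. No promoter window was held for 8 genes.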

Additional observations from a re-analysis of the deposited data

Results flagged for a closer look

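In groups of 5 libraries, the highest or lowest value was picked out where its gap to the next took up more of the group's range than Dixon's 95% value allows. Among 74 groups of values looked at, 12 were picked out (16.2%), where chance gives about 1 in 20, and values of the same library are not independent. PBS 3 was far above the other PBS libraries for Gstz1 (93.2 CPM), Ugt2b38 (249.8 CPM) and Ugt1a7c (82.0 CPM), and in the sum of collecting duct markers (419 CPM). PBS 4 was far above them for Gsta1 (0.851 CPM, 16 counts) and in the sum of adipocyte markers (86.8 CPM). PBS 5 was lowest for Mgst1 (64.6 CPM) and highest in the sum of T cell markers (79.2 CPM). DMM 4 was far below the other DMM libraries for Gstp1 (31.3 CPM) and Gstt1 (20.7 CPM). DMM 5 was highest in the sum of adipocyte markers (7.78 CPM), and DMM 3 for Ugt1a2 (29.98 CPM).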

How the results depend on the processing

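The calls depended on the method and the libraries. Over all 10 libraries, 0 genes were called by edgeR; DESeq2 called 41, an unadjusted p in place of the adjusted one 993, and the 8 libraries without PBS 3 and DMM 1 gave 1042. Leaving out each library gave 0 to 486, the last without DMM 1. For the conjugation genes the count of 0 became 11 with an unadjusted p, 10 with the 8 libraries and 0 to 1 with a library left out.

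Over the 8 libraries, the 1042 genes became 1663 with DESeq2, 2265 with an unadjusted p and 407 (without PBS 5) to 2410 (without DMM 4) with a library left out. The 10 conjugation genes became 15 with DESeq2, 18 with an unadjusted p and 3 (without PBS 5 or DMM 5) to 19 (without DMM 4) with a library left out. Sult1d1, Ugt1a7c and Ugt8a kept their calls whichever library was left out. The median log2 fold change of the tested conjugation genes stayed above 0 in all settings but varied in size, over the 8 libraries from 0.29 with library size alone to 0.65 without DMM 4. That of all tested genes, 0.02, turned to -0.09 with library size alone.

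With the replicate number as a replicate block, the fit over the 8 libraries called 0 genes and 0 conjugation genes. Among these libraries only numbers 2, 4 and 5 have both groups, so PBS 1 and DMM 3 do not enter the blocked contrast. That fit therefore changes the libraries compared as well as the model, and leaves few residual degrees of freedom. Its lost calls and turned signs cannot be put down to the block alone. For libraries with the same number, deviations from the group mean were correlated across genes. The values were -0.0452, 0.114, 0.424, 0.155 and -0.312 for numbers 1 to 5. They had both signs, and whether the numbers pair the mice cannot be read from them.

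The sign of some log2 fold changes turned with the setting, all of genes not called in either set, though Gstm1, at 0.49 over the 8 libraries, was called without DMM 4. Over all 10 libraries, Gstp1 had 0.0018 with DESeq2, 0.0018 with RLE and 0.0031 with at least 10 counts in 4 libraries. Library size alone gave -0.052 for Sult4a1 and -0.019 for Mgst1, and the replicate block -0.021 and -0.011. Gstt1 had 0.064 over the 8 libraries. With a library left out, the values ran from -0.057 to 0.16 for Gstp1, -0.12 to 0.15 for Sult4a1, -0.055 to 0.20 for Mgst1, -0.22 to 0.13 for Gsto1 and -0.13 to 0.23 for Gstt1.

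Over the 8 libraries, the replicate block gave -0.085 for Gstm1, -0.059 for Mgst1 and -0.24 for Gstt1, and library size alone -0.0020 for Sult4a1 and -0.015 for Gstt1. With a library left out, the values ran from -0.12 to 0.19 for Gstp1, -0.071 to 0.28 for Sult4a1 and -0.12 to 0.37 for Gstt1. The causes of these shifts were not tested.

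The calls rest on 4 mice per group, chosen by the deposited means, for which no reason is given in the sources used here, and leaving out libraries that go against their groups favours calls. With 5 mice per group edgeR called none. Groups of close gene copies share reads, and low counts carry counting error. DMM 4 was low for short genes as a group and stood apart from all other libraries. Transcript levels say nothing of enzyme activity or of conjugates, and kidneys without obstruction were not compared here.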
